A study of Mus musculus with 12 samples.

Results

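Ghitm, also named TMBIM5, encodes an inner mitochondrial membrane protein of the transmembrane BAX inhibitor motif (TMBIM) family. It is described here in hearts labelled as lacking Rexo2, together with 5 TMBIM relatives and the inner-membrane genes Letm1 and Letmd1. These 8 genes were chosen by name with earlier results of the same contrast in view, because Ghitm stood out in it. The contrast is therefore given for them as a description and without a test. All 8 are among the 54751 features of the deposited expression table, and 7 of them, all but Faim2, are among the 18250 features whose mean over the libraries reached 10 normalised counts.

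The series profiled hearts of C57BL/6N mice at 52 weeks of age. The 3 control libraries of total heart RNA have the genotype Rexo2loxP/loxP. The 3 knockout libraries carry the same floxed alleles and, in addition, +/Ckmm. Ckmm names muscle creatine kinase, and its promoter is a usual driver of Cre in muscle of the heart and skeleton. Other cells of the heart would then keep their Rexo2. No control carries the Ckmm allele, whose own part cannot be told apart from the loss of Rexo2. Each library is named by the number in its column, such as control 490. No label ties it to its own animal, so p-values measure the spread between these libraries, which may be technical. A further 6 samples of RNA ends from heart mitochondria were not analysed here.

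TMBIM proteins share a hydrophobic domain with several membrane-spanning helices and are known for regulating calcium in intracellular membranes and for restraining cell death. Ghitm sits in the inner mitochondrial membrane, where it has been linked to cristae structure, cytochrome c retention, calcium and proton exchange, and the m-AAA protease subunit AFG3L2. Tmbim6 (BAX inhibitor 1) acts in the endoplasmic reticulum, Tmbim4 in the Golgi, Grina (TMBIM3) in the endoplasmic reticulum, Tmbim1 (RECS1) in endosomes and lysosomes, and Faim2 (TMBIM2) in neurons as an inhibitor of Fas signalling. Letm1 encodes an inner-membrane protein of cation and proton exchange, and Letmd1 a mitochondrial protein with a related LETM domain.

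The promoter window of Ghitm is printed because Ghitm is the gene on which the contrast turns. It runs from 250 bases before to 50 bases after the start of a RefSeq model (chr14:37135273-37135572, minus strand, GRCm38.p6), the most upstream of 3 windows listed for this gene. Capitals mark each match to CCAAT on either strand, which all read ATTGG here.
Ghitm: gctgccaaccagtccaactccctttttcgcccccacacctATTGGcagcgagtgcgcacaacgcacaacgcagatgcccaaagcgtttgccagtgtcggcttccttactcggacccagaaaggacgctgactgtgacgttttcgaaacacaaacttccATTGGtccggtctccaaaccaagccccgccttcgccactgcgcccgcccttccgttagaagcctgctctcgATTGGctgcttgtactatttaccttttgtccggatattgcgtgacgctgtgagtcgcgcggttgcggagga
The matches span bases -210 to -206, -92 to -88 and -21 to -17, with the annotated start as base 0. Of 32851 promoter windows of 300 bases, 37.4% held at least 1 match to CCAAT and 3.37% held at least 3. The windows of Tmbim1, Letm1 and Letmd1, the other 3 genes of the set with an entry, held 1 match each. The Ghitm window also held 1 match to TGACGT, the core of the cAMP response element (in 7.51% of windows), and 1 to GGGCGG, the GC box (in 35.7%). Neither overlapped a CCAAT match. It held 0 matches to TGACCTT, the core element of estrogen-related receptors (in 4.72% of windows), and 0 to CACGTG, the E-box (in 7.15%). Both strands were searched, and nothing in these data measures binding.

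The libraries held between 41979163 and 50764023 reads. Reads on mitochondrial DNA features made up 69.6 ± 0.35% (SD, n = 3) of the control and 71.6 ± 0.23% of the knockout libraries. On the first principal component, which holds 26.4% of the variance, control 490 lay at -30.1 and the other 5 libraries between -5.63 and 16.7. Rexo2 itself (chromosome 9, 48468512 to 48480611) had means of 330 ± 37.3 (control) and 292 ± 20.2 (knockout) normalised counts (SD, n = 3). The Rexo2 groups overlapped (log2 fold change -0.17, SE 0.10, limma adjusted p = 1.00). Since the deleted exons are not given in the sources used here, the count does not check the labels. Knockout means the label throughout. Values below are normalised counts per gene, which are not divided by gene length. Levels of different genes were therefore not ranked, and a share or ratio between genes was compared only across libraries.

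Ghitm (ENSMUSG00000041028.16, chromosome 14, 37120444 to 37135322, protein coding) was lower in every knockout library than in any control library. The controls 490, 498 and 502 held 4757, 4788 and 4694 normalised counts. The knockout libraries 492, 499 and 501 held 3179, 2823 and 2985. The 3 controls lay close together and the 3 knockout libraries lay apart from them with no overlap. The means were 4746 ± 47.8 and 2996 ± 178 (SD, n = 3 per group), a change of -36.9%. On the log2 scale the difference, knockout minus control, was -0.67 ± 0.051 (SE). Ghitm was the 1 gene of the 7 tested whose groups did not overlap, as in 4.9% of all tested features in that direction. This count repeats the contrast by which Ghitm was chosen, and nothing is read from it.

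**Figure D1:**
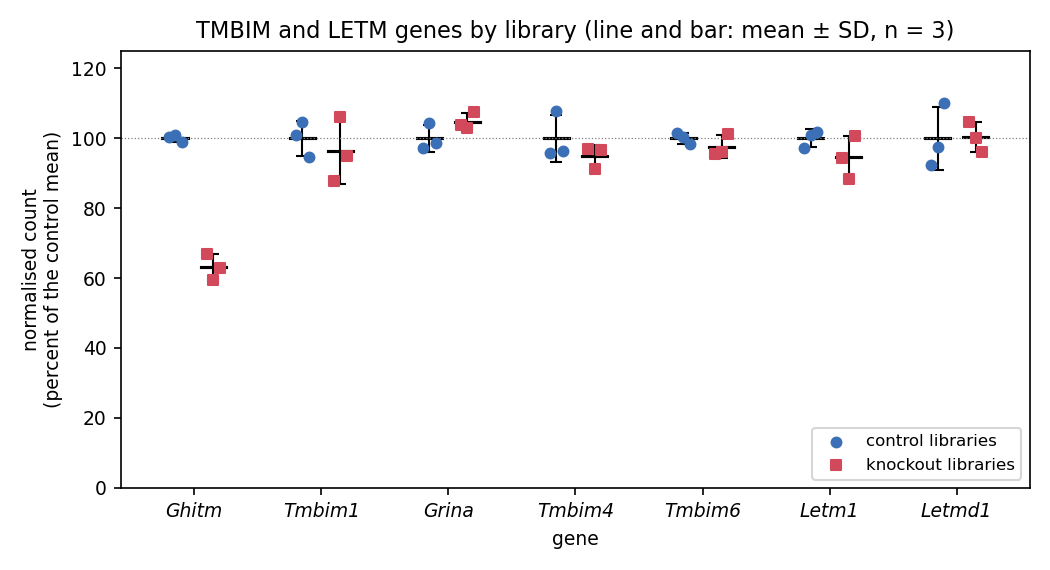
Normalised counts of the 7 tested genes as a percentage of each gene's control mean, with 1 point per library (circles, control; squares, knockout), the mean as a line and the SD as a bar (n = 3). Ghitm lies between 59.5% and 67.0% of its control mean in the knockout libraries, and the groups of the other 6 genes overlap.

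The control libraries agreed on Ghitm to within the noise of counting reads, and the knockout libraries did not. The coefficient of variation of Ghitm was 1.01% among the controls, where counting error alone gives about 1.42%, and 5.95% among the knockout libraries, where counting gives about 1.87%. Knockout 492 was the highest of these at 67.0% of the control mean, followed by knockout 501 at 62.9% and knockout 499 at 59.5%. Of the 2187 features averaging 1000 normalised counts or more, 95 had a lower coefficient of variation than Ghitm among the controls and 1521 had a lower one among the knockout libraries. The medians over these features were 4.12% and 4.27%. Choosing a gene because it stands out between groups favours a small spread within them. Each coefficient rests on 3 libraries, so these values describe the libraries and nothing is read from them about Ghitm or the genotype.

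Relative to reads on nuclear features, which leaves the higher mitochondrial DNA share out of the total, the CPM of Ghitm (reads per 1000000 nuclear reads) was 342, 354 and 347 in controls 490, 498 and 502. It was 237, 213 and 221 in knockout 492, 499 and 501. The groups did not overlap on this scale either. The log2 fold change was -0.64 when libraries were scaled to equal totals without mitochondrial DNA features. With all features in the total, it was -0.74. Both scales reuse the reads of the contrast that chose Ghitm, so neither is a separate check. In whole tissue, fewer cells of a type and less RNA per cell cannot be told apart.

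The other TMBIM genes differed little between the groups, and the groups overlapped for each. Tmbim6 (chromosome 15, 99392947 to 99410049), a calcium regulator of the endoplasmic reticulum, held 2409, 2380 and 2336 normalised counts in controls 490, 498 and 502, and 2266, 2280 and 2405 in knockout 492, 499 and 501. Knockout 501 lay within the control range and the other knockout libraries just under it. Its means were 2375 ± 36.6 and 2317 ± 76.7 (SD, n = 3), a log2 difference of -0.036 ± 0.050 (SE).

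Tmbim1 (chromosome 1, 74288247 to 74304336), which encodes a protein of endosomes and lysosomes, held 894, 927 and 838 normalised counts in controls 490, 498 and 502 and 777, 941 and 840 in knockout 492, 499 and 501. The knockout libraries thus held both the lowest and the highest value of Tmbim1, and its log2 difference was -0.059 ± 0.076 (SE). Knockout 499, which had the lowest Ghitm count, had the highest Tmbim1 count. Leaving out knockout 492 turned the sign of Tmbim1, at 0.0062.

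Grina (chromosome 15, 76246717 to 76249909) held 754, 811 and 765 normalised counts in the controls, in the same order of libraries, and 806, 800 and 835 in the knockout libraries. Control 498 lay among the knockout libraries and the other 2 controls below them. Of the tested TMBIM genes, Grina was the 1 with a value above 0, a log2 difference of 0.067 ± 0.062 (SE), which became -0.0029 under scaling to equal totals of all features.

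Tmbim4 (chromosome 10, 120208826 to 120224897), a Golgi member of the family, held 235, 264 and 236 normalised counts in the controls and 237, 223 and 237 in the knockout libraries. Control 498 lay above every knockout library and knockout 499 below every control, and the other 4 libraries lay close together. The log2 difference was -0.074 ± 0.095 (SE), and counting error alone gives a coefficient of variation of about 6.24% at this depth. Faim2 (chromosome 15, 99497005 to 99534880) was nearly absent, with 1, 0 and 1 reads in the controls and 1, 0 and 5 in the knockout libraries, and was not tested. The authors' deposited table lists a log2 fold change of 1.80 for Faim2 and a larger SE of 1.89. A count of 0 allows up to 3 reads by counting error alone. Per 1000000 reads of all features, mitochondrial DNA included, this is 0.0625 in control 498 and 0.0603 in knockout 499. These limits are not on the nuclear scale used above for Ghitm. Tmbim7, another TMBIM gene of the mouse, is no member of the set and was at 0 in all 6 libraries.

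Within each library, Ghitm took a smaller share of the reads on the 6 TMBIM genes in the knockout hearts. The share was 52.6%, 52.2% and 52.9% in controls 490, 498 and 502, with 95% Wilson intervals from 51.2% at the lowest to 54.0% at the highest. It was 43.8%, 39.9% and 40.8% in knockout 492, 499 and 501, with intervals from 38.8% to 44.9%, which cover counting error only. The groups did not overlap in this share. The summed normalised counts of the other 5 TMBIM genes were 4284 ± 103 in control and 4218 ± 120 in knockout libraries (SD, n = 3) and overlapped. The share is set by Ghitm and rests on the contrast that chose it.

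**Figure D2:**
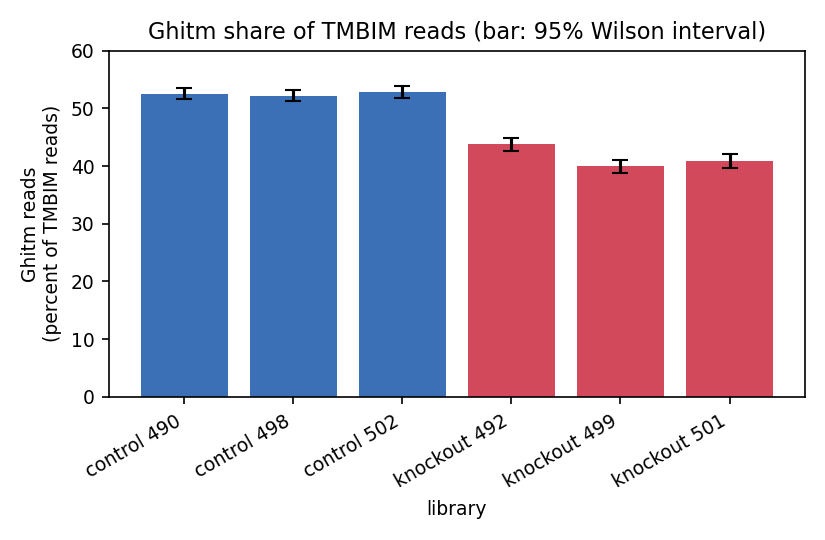
Reads on Ghitm as a percentage of all reads on Ghitm, Tmbim1, Grina, Faim2, Tmbim4 and Tmbim6 in each library, with 95% Wilson intervals as bars. The 3 control libraries lie between 52.2% and 52.9% and the 3 knockout libraries between 39.9% and 43.8%.

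Letm1 (chromosome 5, 33739673 to 33782717), a cation exchanger gene of the same membrane as Ghitm, held 726, 756 and 762 normalised counts in controls 490, 498 and 502. It held 706, 662 and 752 in knockout 492, 499 and 501. One knockout library lay within the control range and the other 2 lay below it. Its means were 748 ± 19.1 and 707 ± 45.3 (SD, n = 3), a log2 difference of -0.083 ± 0.068 (SE). The sign was negative in all 17 alternatives, which reuse the same libraries, and so were the signs of Tmbim4 and Tmbim6. With 1 library left out, the difference of Letm1 ran from -0.13 to -0.037. Within libraries, the log2 ratio of Ghitm to Letm1 counts was 2.67 ± 0.044 in control and 2.08 ± 0.092 in knockout hearts (SD, n = 3). Like the share above, this ratio rests on the contrast that chose Ghitm.

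Letmd1 (chromosome 15, 100462421 to 100479252) held 238, 251 and 283 normalised counts in the controls and 269, 258 and 247 in the knockout libraries. The knockout values lay inside the control range, and the log2 difference was 0.0075 ± 0.097 (SE). Its sign varied with the library left out, from -0.047 to 0.078, and it was -0.062 under scaling to equal totals of all features. Letm2, a paralog of Letm1 outside the set, held 170 ± 4.78 against 153 ± 25.7 normalised counts (SD, n = 3), with overlap (log2 fold change -0.17, SE 0.13, limma adjusted p = 1.00).

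**Figure D3:**
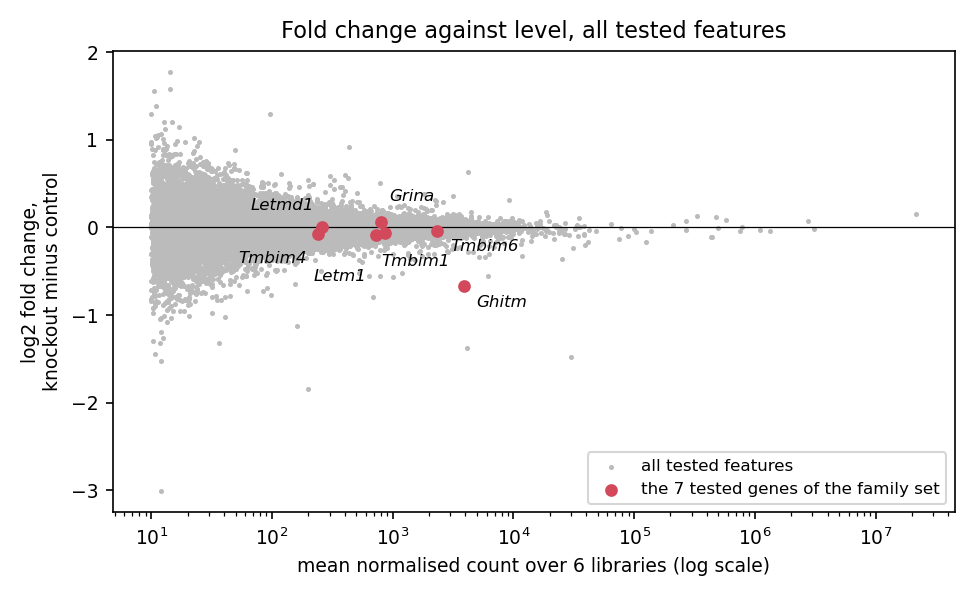
Log2 fold change of knockout minus control against the mean normalised count over the 6 libraries (log axis) for all 18250 tested features, in grey, with the 7 tested genes of the set in red. Ghitm lies at -0.67 below the band of features at its level, and the other 6 genes lie between -0.083 and 0.067.

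Among these 2187 abundant features, 2 had a larger absolute log2 fold change than Ghitm. These were Gm42418 (-1.47, SE 1.30) and Lars2 (-1.38, SE 1.26). In both, control 490 was the highest library, knockout 501 was the next, and the groups overlapped. Whether the reads counted on Lars2 come from its own transcript was not tested. Ghitm was at -0.66 without control 490. The 2 features were named after their values were seen. This rank repeats the contrast by which Ghitm was chosen, and nothing is read from it. Features averaging below 1000 normalised counts were left out of it.

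Ghitm is expressed from a sparse stretch of chromosome 14 in the heart. Within 500 kb on either side, RefSeq lists 11 other genes, of which 1, Ccser2, was expressed enough to test. Ccser2 held 5175, 5604 and 5441 normalised counts in controls 490, 498 and 502 and 5281, 5499 and 5426 in knockout 492, 499 and 501. The groups of this neighbour overlapped fully, with a log2 difference of -0.00063 ± 0.047 (SE; limma adjusted p = 1.00). Of the other 10, 8 were at 0 in all libraries, among them the retinal genes Rgr, Lrit1 and Lrit2. Cdhr1 and 2610528A11Rik did not exceed 1.02 normalised counts in any library.

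The features whose pattern over the 6 libraries was most like that of Ghitm were, by Pearson's r of log2 values, Pdha1 (r = 0.998), Pdk1 (0.995), Sucla2 (0.992), Cpe (0.992) and the pseudogene Gm6728 (0.992). They were found among 13565 named features with a mean of at least 50, of which 132 had an r of at least 0.9. Since r over all 6 libraries is set mainly by the difference between the groups, it repeats the contrast and is given as a description. The choice by r over the same libraries also favours features that follow Ghitm within groups. After each group's mean was taken out, r with Ghitm was 0.89 for Pdha1, 0.84 for Gm6728, 0.83 for Pdk1, 0.73 for Sucla2 and 0.64 for Cpe.

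Pdha1, the E1 alpha subunit of pyruvate dehydrogenase, held 13266, 13218 and 13188 normalised counts in controls 490, 498 and 502 and 10841, 10375 and 10397 in knockout 492, 499 and 501. Pdk1, a kinase that inhibits that enzyme, held 3411, 3420 and 3341 against 2951, 2832 and 2827. Sucla2, a subunit of succinyl-CoA synthetase, held 3883, 4008 and 3873 against 3406, 3301 and 3345. As for Ghitm, knockout 492 was the highest knockout library for these 3 genes and for Cpe, while for Gm6728 knockout 501 and 492 were nearly level at 474.9 and 474.4. Their log2 fold changes were -0.33, -0.24 and -0.23, smaller in size than that of Ghitm, and Cpe, carboxypeptidase E, was at -0.52 and Gm6728 at -0.37.

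**Figure D4:**
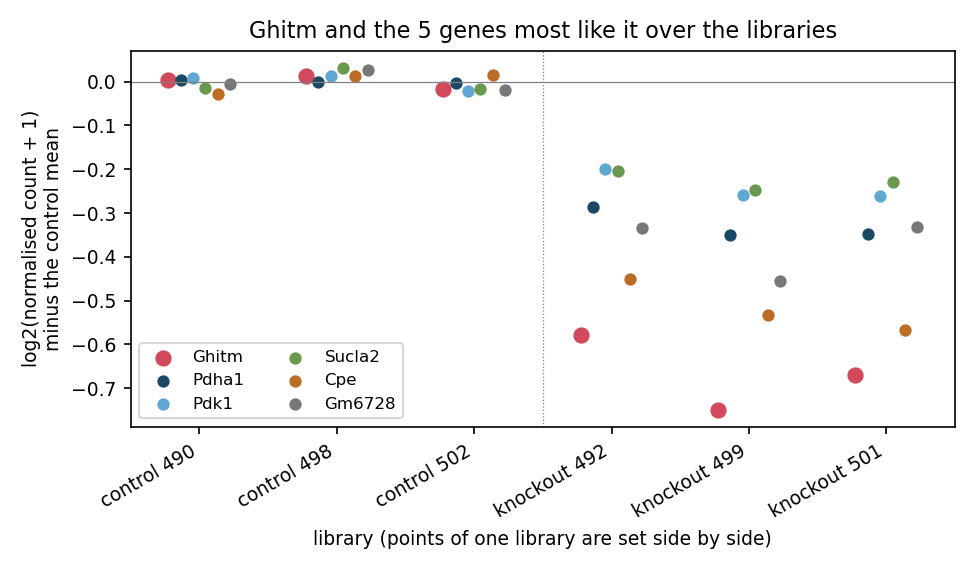
Log2(normalised count + 1) minus the control mean in each of the 6 libraries, for Ghitm and the 5 features most like it by Pearson's r. All 6 lie near 0 in the controls and below it in the knockout libraries, with Ghitm the lowest.

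The other tested genes of the set had lower values of r. Over the 6 libraries r with Ghitm was 0.63 for Letm1, 0.57 for Tmbim4, 0.50 for Tmbim6, 0.19 for Tmbim1, -0.028 for Letmd1 and -0.64 for Grina. Within groups it was -0.79 for Tmbim1, 0.50 for Tmbim4, 0.41 for Letm1, 0.15 for Grina, 0.12 for Letmd1 and -0.062 for Tmbim6. Each value rests on 6 libraries that share their scaling and is a description.

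Genes of families and processes related by topic to the TMBIM and LETM proteins were taken from 12 lists, with 124 tested genes beyond the 8. The TMBIM list added 0 of these, and joint action with the TMBIM or LETM proteins was not tested. Limma called 0 of the 124, and edgeR and DESeq2 on recovered reads also called 0, where over all features limma called 0.0219%, edgeR 0.0274% and DESeq2 0.437% of the 7550 with an adjusted p. An unadjusted limma p under 0.05 was reached by 3 of the 124, or 2.42%, against 3.7% of all tested features. All 3 were lower (1.98% of all features), with 2 in the unfolded protein response list and 1 in the list of endoplasmic reticulum calcium genes, and the other lists had 0. The groups did not overlap in 13, or 10.5%, against 9.51% of all tested features. Of these, 5 were higher and 8 lower, where 4.61% and 4.9% of all features were. The median log2 fold change of the 124 was -0.0020 and that of all tested features 0.00056. Both shares lay near the background. Under scaling to equal totals of all features, which shifts the median of all tested features to -0.069, limma called 1 of them, Canx.

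Genes of mitochondrial calcium uptake and release had 0 called of 11 and a median of -0.065. Mcur1, a regulator of the uniporter, had a log2 fold change of 0.097 (SE 0.057, limma adjusted p = 1.00) with no overlap between groups, and Smdt1, which encodes the uniporter subunit EMRE, one of -0.12 (SE 0.077) with overlap. The pore gene Mcu was at -0.043 and the sodium-calcium exchanger Slc8b1 at -0.065, both with overlap. Mcub, a paralog of Mcu that dampens the pore, was at -0.62 (SE 0.50) on means of 12.4 and 8.24 normalised counts, with overlap, and was named after its value was seen. Slc25a24, a calcium-dependent carrier of adenine nucleotides, was at -0.17 (SE 0.12), lower without overlap. Of the 11, 8 lay below 0, and the median turned to 0.0089 without control 498 and to 0.0035 without knockout 492. The potassium channel, nucleotide carrier and uncoupling genes of the inner membrane had 0 called of 8 and a median of 0.089, which was 0.019 under equal totals of all features and 0.018 to 0.14 with 1 library left out (lowest without knockout 501, highest without knockout 499; dropping knockout 492 gave 0.029, dropping control 502 gave 0.037 and dropping control 498 gave 0.043). In this list Abcb8 was at 0.079 (SE 0.076) and Slc25a27 at 0.13 (SE 0.12), with overlap in both.

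The inner membrane proteases and prohibitins, which include the AFG3L2 protease linked to Ghitm, had 0 called of 12 and a median of 0.028. Afg3l2 had means of 1062 ± 41.7 and 1115 ± 24.4 normalised counts in the control and knockout groups (SD, n = 3), with overlap. Its partner subunit Spg7 was at -0.16 (SE 0.084, limma adjusted p = 1.00) and the rhomboid protease gene Parl at 0.15 (SE 0.094, limma adjusted p = 1.00), which did not overlap. Maip1, whose product works with the m-AAA protease on EMRE, was at -0.16 without overlap. The median of this list was -0.042 under scaling to equal totals of all features and -0.011 without knockout 492.

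Genes of cristae organisation had 0 called of 14, no gene without overlap, and a median of 0.0036, which was -0.066 under equal totals of all features, -0.021 without control 502 and -0.020 without knockout 492. Immt, which encodes the MICOS core protein mitofilin, held 5475 ± 186 against 5376 ± 169 normalised counts (SD, n = 3), and Opa1, a fusion and cristae GTPase, 3131 ± 78.7 against 3055 ± 69.1. Chchd2, whose product has been reported to bind the Ghitm protein, held 2525 ± 106 against 2511 ± 171. The groups overlapped in these 3 genes. Chchd6 was at 0.49 (SE 0.29) on fewer than 40 normalised counts per library, and Chchd3 at 0.054 (SE 0.050).

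The cytochrome c release and caspase list had 0 called of 10 and a median of -0.027, which was 2.6e-05 under equal totals without mitochondrial DNA features. Cycs, cytochrome c itself, held 4087 ± 237 against 4082 ± 317 normalised counts (SD, n = 3). Apaf1, the apoptosome scaffold, was at -0.20 (SE 0.098) and Diablo, an inhibitor of IAP proteins, at -0.13 (SE 0.091), both with overlap. Of the genes without overlap, the initiator caspase gene Casp9 was at 0.12 (SE 0.10) and Endog, a mitochondrial nuclease gene, at -0.087 (SE 0.077). The BCL2 family had 0 called of 17 and a median of 0.022, which was -0.048 under equal totals of all features and -0.014 without knockout 492. Bcl2 was at 0.29 (SE 0.14, limma adjusted p = 1.00) with overlap, Bad at 0.20 (SE 0.12) and the pore former gene Bak1 at -0.14 (SE 0.10), both without overlap, and Bax at -0.039 (SE 0.17) with overlap.

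The unfolded protein response list, which covers the IRE1 branch that Tmbim6 is known to restrain, had 0 called of 20, with 15 genes below 0. Its median was -0.059, and it stayed negative under both other scalings (-0.13 and -0.032) and without any 1 library (-0.098 to -0.027). Canx, the chaperone calnexin, held 3719, 3588 and 3575 normalised counts in controls 490, 498 and 502 and 3338, 2976 and 2938 in knockout 492, 499 and 501. Its groups did not overlap, and its log2 fold change of -0.24 (SE 0.055) had a limma adjusted p of 0.378, one of 0.0705 by DESeq2 on recovered reads, 0.631 by edgeR and 0.0451 under scaling to equal totals of all features. Hspa5, the chaperone BiP, was at -0.16 (SE 0.070, limma adjusted p = 1.00) with overlap, and Xbp1, the target of IRE1, at -0.15 without overlap. In the other direction, the chaperone cofactor gene Dnajb9 was at 0.11 (SE 0.071), also without overlap. Ern1, which encodes IRE1, was at 0.13 (SE 0.10) with overlap.

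Calcium genes of the endoplasmic reticulum and plasma membrane had 0 called of 12 and a median of -0.047. With 1 library left out, the median ran from -0.062 (without knockout 499) to -0.012 (without knockout 492), and was -0.028 without control 502. It was -0.12 under equal totals of all features and -0.019 under equal totals without mitochondrial DNA features. Tmco1, a calcium leak channel gene, was at -0.097 (SE 0.069, limma adjusted p = 1.00) without overlap, and Itpr2, an inositol trisphosphate receptor, at -0.00095 (SE 0.064) with overlap.

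**Figure D5:**
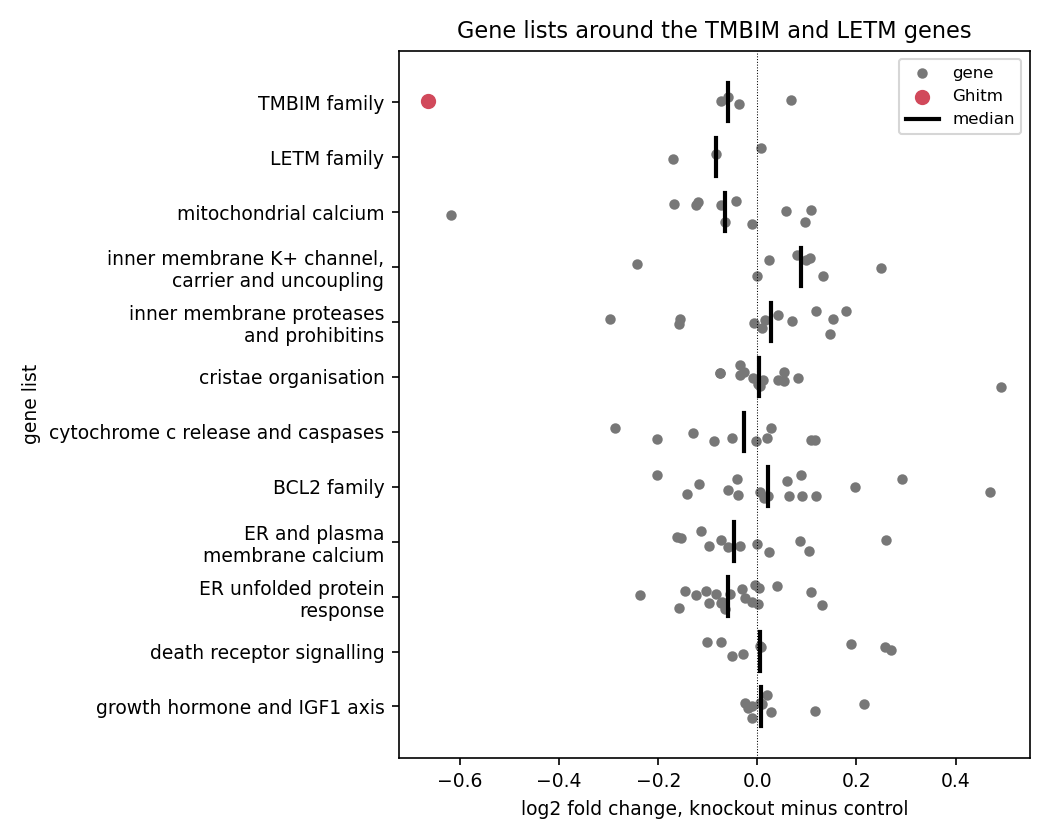
Log2 fold change of knockout minus control for each tested gene of the 12 lists, with 1 row per list, list medians as vertical lines and Ghitm in red. Ghitm lies at -0.67 in the TMBIM row, and the list medians lie between -0.083 and 0.089.

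Markers of heart cell types were compared because Ghitm and its relatives were measured in whole hearts. Summed cardiomyocyte markers ranged from 426949 to 468112 normalised counts in control and from 424223 to 456302 in knockout libraries, with 0 of 8 called by limma and a median log2 fold change of -0.0037. Defining genes such as Myh6 and Myl2 were abundant, as the heart label requires. Summed endothelial markers ranged from 9072 to 10476 against 9532 to 10113, and fibroblast markers from 7154 to 7246 against 6988 to 7736. Macrophage markers ranged from 1743 to 1971 against 1825 to 2058. Smooth muscle and pericyte markers ranged from 17058 to 17326 against 17121 to 17819. Rgs5 alone averaged 13745 over the 6 libraries in this sum, and Myh6 averaged 271557 in the cardiomyocyte sum. Overlap of these 2 sums therefore says little about their lower markers. Red blood cell markers ranged from 17307 to 22619 against 16887 to 23640, and the adipocyte sum from 2279 to 2629 against 2342 to 2927. The adipocyte sum is almost wholly Fabp4, which capillary endothelium also expresses, with Lep at 0 and Adipoq, Plin1 and Cidec at 4.51 or less in every library. All of these ranges overlapped between the groups, and the part of cell composition in the Ghitm difference was not tested. Limma called 0 of the 45 tested genes of the 10 marker lists. An unadjusted p under 0.05 was reached by 1 higher (Adgre1) and 1 lower marker (Tubb3), or 4.44%, against 3.7% of all tested features. Neuron and Schwann markers, which bear on the neuronal gene Faim2, summed to 200.2 to 250.3 normalised counts in control and 169 to 237 in knockout libraries, with the dopamine synthesis gene Th at 0 in all 6. Lymphocyte markers summed to at most 74.3 and epicardial markers to at most 83.4 in any library.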

How the data were processed

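The authors deposited signal per gene as normalised counts. The submitters' processing notes list the tools Bowtie2 2.3.4.1 and featureCounts, then bedtools, DESeq2 1.22.2 and R 3.5.2, and the builds mm10 and GRCm38, with no roles. Strand use and annotation are not given in the sources used here. Reads of overlapping genes or near-identical copies may therefore be mixed. A second deposited table, from DESeq2, gives log2 fold changes, a test score and p-values, and was used where named. Division by what 1 read is worth made 100% of 156689 nonzero values whole, within 0.01. On these recovered reads edgeR called 5 features.

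Symbols were matched for 54686 of 54715 Ensembl features, and the row of highest mean was kept. Positions and promoters are from RefSeq, GRCm38.p6. Values were tested as log2(value + 1), which understates changes of low genes, with limma 3.58.1 in R 4.3.3, a trended prior, genotype as the only term, a mean of at least 10, and Benjamini-Hochberg adjustment over 18250 features at 0.05. On simulated counts for these 18250 features the fit recovered 4% of 50 genes changed 1.2-fold, 76% at 1.5-fold and 100% at 2-fold and 3-fold. It also called 5 unchanged features. The changed genes were drawn from features with a mean of at least 50, and each feature was given the spread typical of its level. Recovery of changes in lower or more variable genes was not simulated. Alternatives used edgeR 4.0.16, DESeq2 1.42.0, other scalings, pseudocounts and filters, and each library left out. Libraries of one group all differed by more than counting noise (chi-square per degree of freedom of 3.34 or more). The members, lists and motifs were chosen with earlier results of these data known. Named genes are the 8 members, other TMBIM and LETM genes, the 2 of smallest p per list, the 5 most like Ghitm and tested neighbours within 500 kb; any other list gene was added after its values were seen. A gene that this rule names in the list of endoplasmic reticulum calcium genes is not reported here. Gene copies were not searched by sequence, as no genome was used here.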

Additional observations from a re-analysis of the deposited data

How the results depend on the processing

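Ghitm was lower in all 17 alternatives, at -0.74 under scaling to equal totals of all features and from -0.71 to -0.62 with 1 library left out. The alternatives reuse the libraries in which Ghitm was chosen, so their common sign adds no support. The count of features called over the whole table, 4 by limma with a trend, was 37 under equal totals of all features, 0 without a trend, 12 with robust moderation, and 33 both by DESeq2 on recovered reads and in the authors' deposited table. It ranged from 1 to 8 with 1 library left out, with 8 without control 490 and 1 without control 498, control 502 or knockout 499. The list genes called went from 0 to 1 under equal totals of all features. The sign turned for Chchd3 under equal totals of all features (-0.016), and for Ccser2 under equal totals without mitochondrial DNA features (0.027), by edgeR (0.00022) and among fits without 1 library (-0.032 to 0.026). The cause of these changes was not tested, apart from the shift of all features that a scaling applies. No paired analysis was possible because the table columns carry library numbers and not the replicate numbers of the labels. Depth limits Faim2, at 5 reads or fewer, and Chchd6.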

Other observations

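Ghitm is named for its induction by growth hormone, and genes of the growth hormone and IGF1 axis were compared for that reason. Limma called 0 of 10 and 0 had an unadjusted p under 0.05, where 0.0219% and 3.7% of all tested features did, so a count of 0 among 10 genes is no result. They had a median log2 fold change of 0.0076 that was -0.062 under equal totals of all features, and below 0 without control 502 (-0.019), knockout 499 (-0.010) or knockout 492 (-0.00090). The receptor gene Ghr had means of 2706 ± 129 and 2686 ± 155 normalised counts in the control and knockout groups (SD, n = 3). Igf1 was at 0.12 (SE 0.11) and Igfals, a carrier of IGF1 in blood, at 0.21 (SE 0.13), both with overlap, and Igf1 ranged from 0.0050 to 0.20 with 1 library left out. Death receptor genes, the pathway that Faim2 inhibits in neurons, had 0 called of 9 by limma, 0 at an unadjusted p under 0.05 and a median of 0.0057, which was -0.063 under equal totals of all features and from -0.029 to 0.011 with 1 library left out (below 0 without control 490, control 498, knockout 492 or knockout 501). Fas was at 0.26 (SE 0.18), Casp8 at 0.19 (SE 0.12) and the Fas inhibitor Faim at 0.0057 (SE 0.21), all with overlap, and Fas ranged from 0.011 to 0.44 with 1 library left out.

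Control 490 held 146938 normalised counts on Gm42418 and 20198 on Lars2, while knockout 501 held 23716 and 3123, and the other 4 libraries held at most 4190 and 607. Ghitm did not stand apart in either library, at 100.2% of the control mean in control 490 and 62.9% in knockout 501.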
